A study of Homo sapiens with 12 samples.

Results

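Glucose uptake, glycolysis and lactate handling were followed in H1299 cells through 37 genes, taken by name from a table of 64253 entries. They cover 3 glucose transporters, enzymes of every glycolytic step with some of their isozymes, and enzymes that set fructose-2,6-bisphosphate. They also cover the lactate dehydrogenases LDHA and LDHB, 2 lactate carriers, 3 pyruvate dehydrogenase kinases, the entry of pyruvate into mitochondria and 3 glycogen genes. Further isozymes, such as the muscle enolase ENO3, are not among the 37. All 37 were found in the table. Of these, 35 passed the filter on low values of at least 0.5 RPKM in at least 3 libraries and were tested. HKDC1, a hexokinase domain protein, lay at 0 to 0.02 RPKM and ALDOC, the brain-type aldolase, at 0.08 to 0.60 RPKM, and both were left out of the tests.

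Glycolysis breaks glucose down to pyruvate in the cytosol and yields ATP without oxygen. Pyruvate then enters mitochondria, where pyruvate dehydrogenase turns it into acetyl-CoA, or is reduced to lactate, which leaves the cell through monocarboxylate transporters. Several steps are carried by isozymes with different affinities and regulation, and tumor cells are known for high glucose uptake and lactate release even where oxygen is present. Many of these genes are known targets of hypoxia-inducible factors, which bind DNA elements with the core letters ACGTG or GCGTG.

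H1299 is an established human non-small cell lung cancer line, and all 12 libraries came from cells grown as spheroids. NT1 and NT2 are cells given a non-targeting control, in PRKCI_KD the gene PRKCI was silenced, and in SOX2_KD the gene SOX2 was silenced, each knockdown by lentiviral short hairpin RNA and each group with 3 libraries. Neither the number of hairpins or clones nor separate cultures per replicate are given in the labels, so an off-target effect of a hairpin cannot be told apart from the loss of its target, and p-values measure a spread that may be technical. NT1 and PRKCI_KD were read on lane 8 of a flow cell and NT2 and SOX2_KD on lane 7 of another, and the effect of a flow cell cannot be told apart from a difference between the pairs. Each knockdown was set against the control of its own flow cell.

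RPKM are reads per kilobase of gene, scaled to the read total of the library, so levels of different genes can be set side by side. Read totals recovered from the table were 77.10 to 124.30 M reads per library. Across genes, the correlation between libraries was 0.964 to 0.995 inside the first pair (NT1 with PRKCI_KD), 0.989 to 0.997 inside the second (NT2 with SOX2_KD) and 0.826 to 0.838 between the pairs. The epithelial keratins KRT8 and KRT18 were expressed, whereas EPCAM, CDH1 and KRT19 and all 5 lung epithelial markers lay under 1 RPKM in every library. The epithelial sum was 180 to 243 RPKM in NT1, 228 to 254 RPKM in PRKCI_KD, 88.3 to 96.5 RPKM in NT2 and 110 to 117 RPKM in SOX2_KD. Of the 2 tested epithelial markers, KRT18 rose in both knockdowns and KRT8 did not pass the test in either. The other 3 were not tested. In NT1 and then PRKCI_KD, KRT19 had 24, 24 and 142 reads against 10, 18 and 4. CDH1 had 19, 6 and 41 against 4, 2 and 9, and EPCAM 34, 58 and 137 against 42, 44 and 48. The sum of 4 neuroendocrine markers was 0.813 to 0.926 RPKM in NT1, 1.01 to 1.34 RPKM in PRKCI_KD, 3.20 to 3.54 RPKM in NT2 and 3.09 to 3.18 RPKM in SOX2_KD. Of these, SYP rose in PRKCI_KD, INSM1 was listed at 0 throughout and NCAM1 lay under 1 RPKM. NCAM1 was not tested and had 106, 169 and 178 reads in NT1 but 64, 52 and 61 in PRKCI_KD. Of 8 immune, endothelial and fibroblast markers in the table, 6 lay under 1 RPKM and CD3E was listed at 0 throughout. Their summed level was 27.7 to 32.8 RPKM in NT1, 32.2 to 36.7 RPKM in PRKCI_KD, 17.8 to 20.5 RPKM in NT2 and 22.5 to 25.9 RPKM in SOX2_KD, almost all of it from CD68, which rose in SOX2_KD. In PRKCI_KD the 1 tested lung epithelial marker fell (log2 fold change -0.155), as did 1 of 2 tested immune, endothelial and fibroblast markers. Of all genes tested, 27.0% fell there. The part of these markers in the results was not tested. In RNA from whole spheroids, fewer cells of a type and less RNA per cell cannot be told apart.

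PRKCI, the kinase gene targeted in PRKCI_KD, stood at 13.8, 14.3 and 16.4 RPKM in NT1 and at 2.43, 2.58 and 2.49 RPKM in PRKCI_KD, and at 15.1, 16.9 and 18.2 RPKM in NT2 and at 14.4, 16.8 and 17.0 RPKM in SOX2_KD. The fall in PRKCI_KD was -2.18 on a log2 scale (SE 0.09, adjusted p = 1.52e-08), and PRKCI did not pass the test in SOX2_KD (-0.05, adjusted p = 0.789). SOX2, the transcription factor gene targeted in SOX2_KD, stood at 3.15, 2.98 and 2.91 RPKM in NT1 and at 1.78, 2.27 and 2.01 RPKM in PRKCI_KD, and at 1.41, 1.49 and 1.55 RPKM in NT2 and at 0.523, 0.582 and 0.588 RPKM in SOX2_KD. SOX2 fell in SOX2_KD (-0.66, SE 0.06, adjusted p = 2.19e-04) and also in PRKCI_KD (-0.41, SE 0.06, adjusted p = 2.51e-04). Both values are on log2(RPKM + 1), which understates changes at such low levels. Over the alternatives tried the fall was -1.25 to -0.22 in SOX2_KD and -0.56 to -0.19 in PRKCI_KD. The deposited values of SOX2 did not convert to whole reads in every library, unlike those of all 37 glucose genes.

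Most of the pathway was higher in PRKCI_KD. In PRKCI_KD against NT1, 24 of the 35 tested genes rose, 4 fell and 7 did not pass the threshold, an adjusted p of 0.05 from limma over all 19777 genes tested. Of all genes tested, 18.1% rose and 27.0% fell. Among all calls 40.2% were higher, a share that was 46.5% with quantile normalization and 46.5% with median-of-ratios scaling. The rise reached at least 2-fold in 15 of the 35 glucose genes (42.9%), against 1.22% of all genes tested, and the median log2 fold change was 0.84 against -0.036. The genes were chosen with earlier results of these data known, so these shares describe them and do not test them as a set. With a pseudocount of 5, 12 genes reached 2-fold, PDK1, PDK3 and GBE1 falling short. A fold change here compares group means of log2(RPKM + 1), a scale that understates changes of genes at low levels. The 37 genes took 1.11% to 1.24% of the reads of NT1 libraries and 2.76% to 3.11% of those of PRKCI_KD libraries. In the other pair they took 2.24% to 2.44% in NT2 and 2.46% to 2.65% in SOX2_KD, so the 2 controls also differed. The 3 knockdown libraries all lay above the 3 controls for 25 of the 35 genes, where 20.9% of all genes tested did so, and all below them for 4, where 30.0% did so. Without 6 genes that share at least 20% of their exons, or of their stretches of 101 bases, with another annotated gene, 22 rose and 1 fell.

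Fewer of these genes changed in SOX2_KD than in PRKCI_KD, and by little. In SOX2_KD against NT2, 6 of the 35 rose, none fell and 29 did not pass the threshold, where 3.56% of all genes tested rose and 4.62% fell. The genes that rose were SLC2A3, HK2, PFKFB2, ENO2, PDK1 and GBE1, by 0.21 to 0.55 on the log2 scale, and none reached 2-fold, as 0.0253% of all genes tested did. The median log2 fold change was 0.05 over the 35 genes and -0.016 over all genes tested. Of all calls in this pair 43.6% were higher, a share that was 56.3% with quantile normalization and 55.4% with median-of-ratios scaling. These calls do not use the replicate numbers. In this pair same-numbered libraries deviated together, and with the replicate number as a block 10 of the 35 rose, the additional genes being GPI, PFKFB4, ALDOA and GAPDH. Leaving out NT2 replicate 2, NT2 replicate 3 or SOX2_KD replicate 1 left 3 genes higher, and leaving out SOX2_KD replicate 2 left 2. SLC2A3 and HK2 kept their call under every alternative tried.

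**Figure D1:**
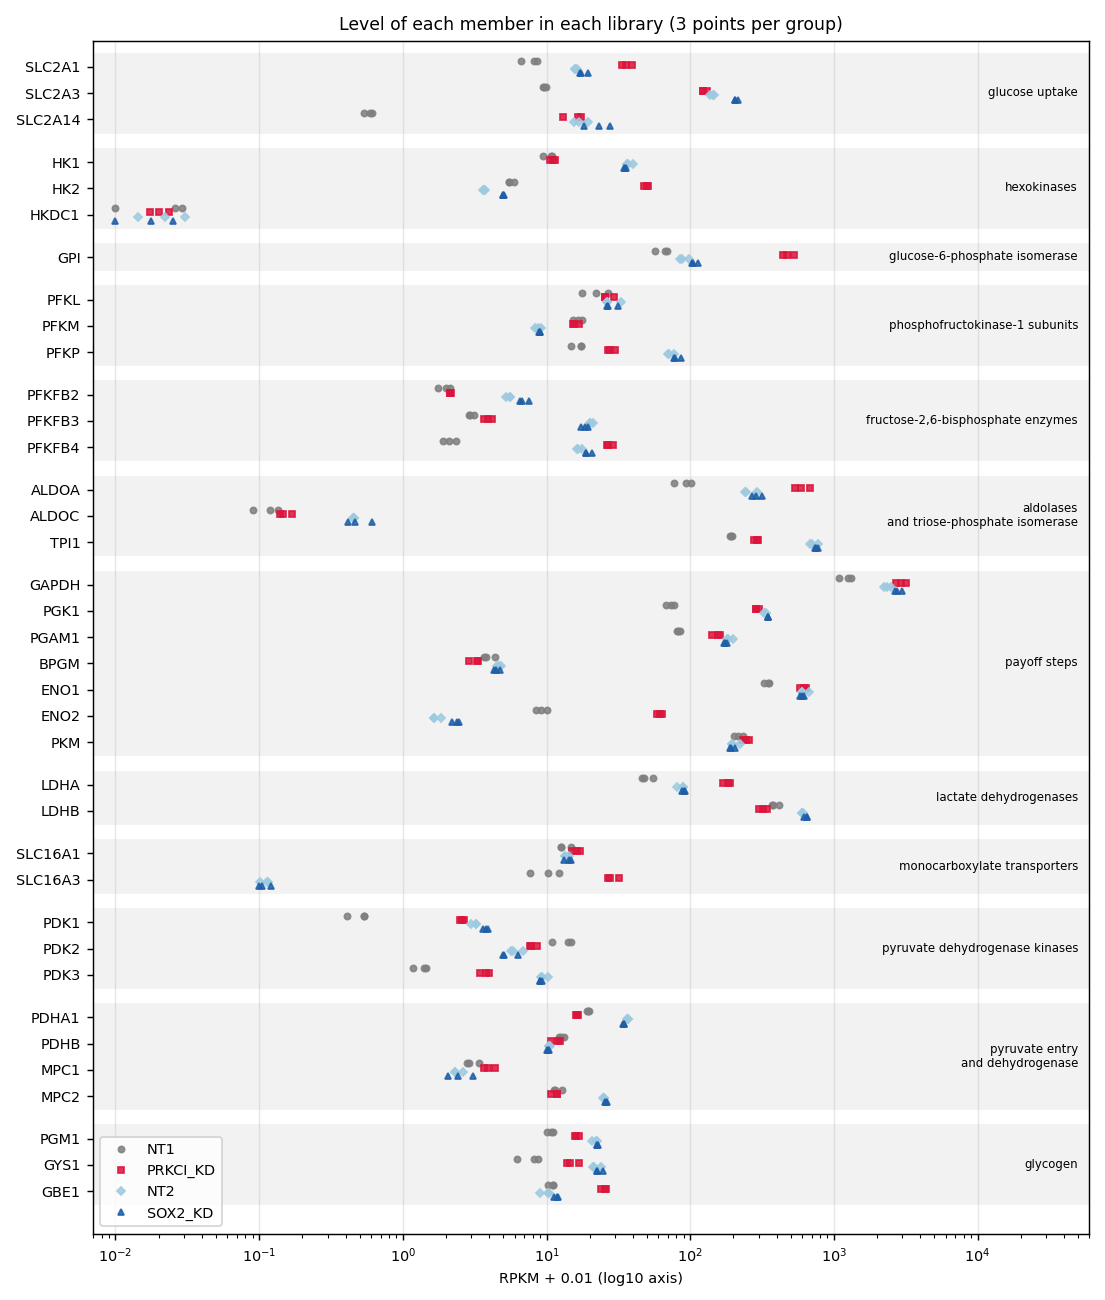
Level of each of the 37 genes in each of the 12 libraries, as RPKM + 0.01 on a log10 axis, with 3 points per group and the genes ordered by step. In PRKCI_KD, 25 of the 35 tested genes lie wholly above NT1, SLC16A3 lies near 0.1 RPKM in NT2 and SOX2_KD, and GAPDH is the most abundant gene throughout.

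The 2 highest changes in PRKCI_KD were those of the glucose carriers SLC2A3 and SLC2A14, of which SLC2A3 but not SLC2A14 stayed among the 2 highest with a pseudocount of 5. SLC2A3 encodes GLUT3, a transporter of high affinity typical of neurons, and stood at 9.52, 9.37 and 9.92 RPKM in NT1 and at 122, 131 and 123 RPKM in PRKCI_KD. On the log2 scale it rose by 3.58 (SE 0.05, adjusted p = 8.75e-12), with every knockdown library far above every control. In the other pair SLC2A3 stood at 136, 147 and 144 RPKM in NT2 and at 206, 215 and 205 RPKM in SOX2_KD, a rise of 0.55 (SE 0.05, adjusted p = 2.11e-04). The NT2 controls thus already lay above PRKCI_KD in level, and SOX2_KD lay above all other libraries.

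SLC2A14 encodes GLUT14, a close relative of GLUT3 whose gene lies beside it on chromosome 12 (SLC2A14 at 7812512 to 7891148 and SLC2A3 at 7919230 to 7936275, minus strand, GRCh38). It stood at 0.600, 0.529 and 0.582 RPKM in NT1 and at 16.6, 12.9 and 17.3 RPKM in PRKCI_KD, and at 16.7, 19.3 and 15.4 RPKM in NT2 and at 23.1, 18.3 and 27.4 RPKM in SOX2_KD. SLC2A14 rose by 3.39 (SE 0.14, adjusted p = 2.06e-08) in PRKCI_KD, while in SOX2_KD its change of 0.39 did not pass the test (adjusted p = 0.119) and the groups overlapped. Of its stretches of 101 bases, 6.06% also occur in other annotated genes, 262 of them in SLC2A3, and reads of such similar genes can be assigned to either, so the value of SLC2A14 is uncertain. With pseudocounts of 0.1 and 5 its rise in PRKCI_KD was 4.54 and 1.88, the latter below those of GPI, ALDOA, HK2, ENO2, PFKFB4 and PGK1. Summed as a single gene, SLC2A3 and SLC2A14 rose by 3.67 in PRKCI_KD and by 0.53 in SOX2_KD.

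SLC2A1 encodes GLUT1, the carrier of basal glucose uptake in most cells. It stood at 8.17, 8.53 and 6.62 RPKM in NT1 and at 39.6, 35.6 and 33.6 RPKM in PRKCI_KD, so that every knockdown library lay above every control. The rise in PRKCI_KD was 2.09 (SE 0.09, adjusted p = 2.53e-08). In the other pair SLC2A1 stood at 16.3, 15.7 and 15.8 RPKM in NT2 and at 19.4, 17.0 and 17.4 RPKM in SOX2_KD, and the change of 0.16 did not pass the test (adjusted p = 0.32, 95% interval -0.04 to 0.35). The 3 carriers together went from 17.9 ± 0.718 to 177.5 ± 3.01 RPKM (mean ± SD, n = 3) between NT1 and PRKCI_KD, and from 175.5 ± 6.37 to 249 ± 1.05 RPKM between NT2 and SOX2_KD.

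Hexokinases trap glucose in the cell as glucose-6-phosphate, HK1 being the widely expressed form and HK2 the inducible form of muscle, fat and many tumors. HK2 stood at 5.50, 5.50 and 5.88 RPKM in NT1 and at 50.7, 47.4 and 50.1 RPKM in PRKCI_KD, and at 3.65, 3.71 and 3.59 RPKM in NT2 and at 5.06, 4.998 and 4.996 RPKM in SOX2_KD. It rose by 2.93 (SE 0.04, adjusted p = 1.26e-11) in PRKCI_KD and by 0.37 (SE 0.04, adjusted p = 0.00102) in SOX2_KD, without overlap in either pair. HK1 stood at 10.8, 10.9 and 9.46 RPKM in NT1 and at 11.5, 11.1 and 10.6 RPKM in PRKCI_KD, and at 40.1, 36.8 and 36.5 RPKM in NT2 and at 36.0, 34.7 and 35.2 RPKM in SOX2_KD. Its change was 0.09 in PRKCI_KD (adjusted p = 0.277) and -0.09 in SOX2_KD (adjusted p = 0.401). HKDC1 stood at 0.0158, 0 and 0.0192 RPKM in NT1, 0.01003, 0.00742 and 0.0134 RPKM in PRKCI_KD, 0.0205, 0.00430 and 0.0122 RPKM in NT2 and 0.0151, 0.00763 and 0 RPKM in SOX2_KD. Of the summed RPKM of HK1, HK2 and HKDC1, HK2 therefore made up 33.4% to 38.3% in NT1 and 81.0% to 82.5% in PRKCI_KD. Its share was 8.35% to 9.16% in NT2 and 12.3% to 12.6% in SOX2_KD.

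The promoters of this pair are shown because one gene rose and the other did not. Each window runs from 250 bases before to 50 bases after the start that RefSeq gives on GRCh38.p14, printed 5′ to 3′ along the gene with ACGTG and GCGTG, on either strand, in capitals. Only 1 start per gene was looked at, and which starts these cells use was not tested. The HK1 window lies at the outer end of that gene, which GENCODE 29 places at 69269984 to 69401884, so starts further inside are not covered. HK2 lies at chr2:74833877-74834176 (plus strand) and holds ACGTG 2 times and GCGTG 1 time, while this window of HK1 at chr10:69269750-69270049 (plus strand) holds neither.
HK2: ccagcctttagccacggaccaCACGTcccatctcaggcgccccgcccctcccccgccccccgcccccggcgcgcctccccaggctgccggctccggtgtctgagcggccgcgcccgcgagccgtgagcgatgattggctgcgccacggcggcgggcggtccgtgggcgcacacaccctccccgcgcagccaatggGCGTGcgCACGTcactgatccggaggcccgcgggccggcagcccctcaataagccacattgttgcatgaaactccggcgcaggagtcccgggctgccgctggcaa
HK1: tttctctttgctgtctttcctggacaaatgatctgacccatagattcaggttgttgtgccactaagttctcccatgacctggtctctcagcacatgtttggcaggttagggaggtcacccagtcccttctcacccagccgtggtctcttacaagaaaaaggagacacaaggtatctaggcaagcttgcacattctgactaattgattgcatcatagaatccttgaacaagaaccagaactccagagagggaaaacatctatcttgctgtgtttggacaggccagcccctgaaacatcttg

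GPI, which turns glucose-6-phosphate into fructose-6-phosphate and has no isozyme, stood at 69.0, 66.6 and 56.4 RPKM in NT1 and at 530.4, 474 and 444 RPKM in PRKCI_KD. It rose by 2.90 (SE 0.09, adjusted p = 2.13e-09), the fifth highest change of the 35 genes. In the other pair GPI stood at 97.5, 87.4 and 85.2 RPKM in NT2 and at 113, 103 and 105 RPKM in SOX2_KD, with a change of 0.25 (adjusted p = 0.115, and 0.0106 with the replicate block). The SOX2_KD libraries all lay above those of NT2.

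Phosphofructokinase-1 commits fructose-6-phosphate to glycolysis and is built from the liver (PFKL), muscle (PFKM) and platelet (PFKP) subunits. PFKP alone of the 3 rose in PRKCI_KD, by 0.73 (SE 0.08, adjusted p = 1.92e-05). It stood at 17.4, 17.5 and 14.9 RPKM in NT1 and at 29.8, 26.8 and 27.6 RPKM in PRKCI_KD, and at 77.1, 69.6 and 70.6 RPKM in NT2 and at 86.9, 76.5 and 78.6 RPKM in SOX2_KD. PFKL stood at 26.7, 22.2 and 17.7 RPKM in NT1, 29.7, 25.4 and 25.5 RPKM in PRKCI_KD, 33.1, 26.2 and 26.5 RPKM in NT2 and 31.6, 26.2 and 26.7 RPKM in SOX2_KD, and its NT1 libraries were spread widely enough to overlap PRKCI_KD. Its change of 0.28 (adjusted p = 0.128) passed the test without NT1 replicate 1 (0.42, adjusted p = 0.0279). Over all alternatives tried, the change of PFKL ran from 0.13 to 0.42, with adjusted p of 0.0117 to 0.426. PFKM stood at 16.5, 17.5 and 15.2 RPKM in NT1, 16.7, 15.2 and 15.5 RPKM in PRKCI_KD, 8.36, 9.10 and 8.77 RPKM in NT2 and 8.96, 8.98 and 8.80 RPKM in SOX2_KD, with a change of -0.05 in PRKCI_KD (adjusted p = 0.507). None of the 3 passed the test in SOX2_KD.

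Fructose-2,6-bisphosphate, the strongest activator of phosphofructokinase-1, is made and removed by the PFKFB enzymes, of which PFKFB3 mainly makes it and PFKFB4 can do both. PFKFB4 stood at 2.07, 2.35 and 1.89 RPKM in NT1 and at 29, 26.9 and 26.3 RPKM in PRKCI_KD, and at 17.6, 16.3 and 16.5 RPKM in NT2 and at 20.8, 18.9 and 18.7 RPKM in SOX2_KD. It rose by 3.20 (SE 0.07, adjusted p = 1.48e-10) in PRKCI_KD, and its change of 0.20 in SOX2_KD did not pass the test (adjusted p = 0.0971, and 0.0365 with the replicate block). PFKFB3 stood at 2.94, 2.89 and 3.12 RPKM in NT1, 4.19, 3.67 and 3.88 RPKM in PRKCI_KD, 20.9, 20.2 and 20.0 RPKM in NT2 and 19.5, 17.5 and 18.5 RPKM in SOX2_KD. It rose in PRKCI_KD by 0.30 (SE 0.06, adjusted p = 0.00111) and its 3 SOX2_KD libraries lay below NT2, by -0.13 on the log2 scale (adjusted p = 0.175). PFKFB2, the heart-type enzyme, stood at 1.75, 2.11 and 1.98 RPKM in NT1, 2.11, 2.13 and 2.14 RPKM in PRKCI_KD, 5.21, 5.54 and 5.56 RPKM in NT2 and 6.48, 7.49 and 6.73 RPKM in SOX2_KD. It was the member of this family that rose in SOX2_KD, by 0.29 (SE 0.06, adjusted p = 0.0153), a call lost without SOX2_KD replicate 2 (adjusted p = 0.0695), and its change in PRKCI_KD was 0.09 (adjusted p = 0.264).

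Aldolase splits fructose-1,6-bisphosphate, and triose-phosphate isomerase, TPI1, interconverts its products. ALDOC stood at 0.0804, 0.126 and 0.108 RPKM in NT1, 0.161, 0.130 and 0.137 RPKM in PRKCI_KD, 0.447, 0.447 and 0.443 RPKM in NT2 and 0.604, 0.403 and 0.454 RPKM in SOX2_KD. ALDOA stood at 101, 93.7 and 76.5 RPKM in NT1 and at 680.0, 592 and 538 RPKM in PRKCI_KD, and at 293, 239 and 246 RPKM in NT2 and at 316, 269.8 and 285 RPKM in SOX2_KD. Every PRKCI_KD library was above every NT1 library, a rise of 2.73 (SE 0.12, adjusted p = 3.83e-08), while NT2 and SOX2_KD overlapped (0.16, adjusted p = 0.477, and 0.0451 with the replicate block). In the annotation of GENCODE 29, 53.5% of ALDOA exon bases also lie in exons of other annotated genes, among them a transcript on the same strand, so the reads counted for it depend on an annotation that is not given in the sources used here. TPI1 rose from 192 ± 2.19 to 288 ± 7.6 RPKM (mean ± SD, n = 3) in PRKCI_KD, by 0.59 (SE 0.06, adjusted p = 1.02e-05). Its means were 717 ± 49.4 RPKM in NT2 and 758 ± 19.3 RPKM in SOX2_KD.

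In the payoff steps, GAPDH makes the high-energy intermediate and NADH, and PGK1 makes the first ATP. GAPDH, often used as a reference gene, stood at 1314, 1247 and 1085 RPKM in NT1 and at 3153, 2928 and 2697 RPKM in PRKCI_KD, and at 2515, 2346 and 2248 RPKM in NT2 and at 2998, 2641 and 2731 RPKM in SOX2_KD. It rose in PRKCI_KD by 1.27 (SE 0.09, adjusted p = 1.11e-06), and the SOX2_KD libraries all lay above NT2, with a change of 0.23 that did not pass the test (adjusted p = 0.139, and 0.0297 with the replicate block). PGK1 stood at 67.9, 73.5 and 76.7 RPKM in NT1 and at 285, 303 and 285 RPKM in PRKCI_KD, and at 325, 337 and 334 RPKM in NT2 and at 345, 349 and 349 RPKM in SOX2_KD. PGK1 rose in PRKCI_KD by 1.99 (SE 0.05, adjusted p = 6.53e-10), with a change of 0.07 in SOX2_KD (adjusted p = 0.502).

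PGAM1, the phosphoglycerate mutase, rose in PRKCI_KD from 82.3 ± 2.15 to 153 ± 9.97 RPKM, by 0.88 (SE 0.06, adjusted p = 6.19e-07). Of its stretches of 101 bases, 27.0% also occur in other annotated genes, among them PGAM4, so its level is uncertain. BPGM, which diverts the pathway through 2,3-bisphosphoglycerate, fell from 3.93 ± 0.378 to 3.15 ± 0.259 RPKM (-0.25, SE 0.07, adjusted p = 0.0105). PKM, the pyruvate kinase gene of most tissues, had 216 ± 16.5 RPKM in NT1 and 245 ± 11.6 RPKM in PRKCI_KD. Its change of 0.18 missed the threshold (adjusted p = 0.0583). It passed without NT1 replicate 1 (adjusted p = 0.0227), without NT2 replicate 1 (adjusted p = 0.0388), with median-of-ratios scaling (0.23, adjusted p = 0.0342) and with the replicate block (adjusted p = 0.00564). Over all alternatives tried, the change of PKM ran from -0.04 to 0.24, with adjusted p of up to 0.671, so its direction depended on the processing. PGAM1, BPGM and PKM did not pass the test in SOX2_KD.

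Enolase makes phosphoenolpyruvate, ENO1 being the general and ENO2 the neuronal form. ENO2 stood at 9.10, 10.1 and 8.47 RPKM in NT1 and at 63.4, 61.5 and 58.7 RPKM in PRKCI_KD, and at 1.82, 1.63 and 1.63 RPKM in NT2 and at 2.45, 2.36 and 2.19 RPKM in SOX2_KD. It rose in PRKCI_KD by 2.61 (SE 0.06, adjusted p = 3.90e-10) and in SOX2_KD by 0.31 (SE 0.06, adjusted p = 0.0165). The call in SOX2_KD was lost without NT2 replicate 2, NT2 replicate 3, SOX2_KD replicate 1 or SOX2_KD replicate 2 (adjusted p of 0.0588 to 0.0667) and with a pseudocount of 5 (change 0.13, adjusted p = 0.102). ENO1 stood at 353, 347 and 326 RPKM in NT1 and at 642, 617 and 578 RPKM in PRKCI_KD, and at 666, 602 and 596 RPKM in NT2 and at 616, 578 and 596 RPKM in SOX2_KD. ENO1 rose in PRKCI_KD by 0.84 (SE 0.06, adjusted p = 1.79e-06), less than ENO2 on the log2 scale, and stayed the main enolase, since ENO2 held 2.51% to 2.83% of enolase RPKM in NT1 and 8.98% to 9.22% in PRKCI_KD. In SOX2_KD the change of ENO1 was -0.06 (adjusted p = 0.672).

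The promoters of the enolase pair are printed in the same way, since both genes rose but by different amounts. ENO2 at chr12:6914330-6914629 (plus strand) holds ACGTG 1 time, and ENO1 at chr1:8878637-8878936 (minus strand) holds GCGTG 2 times.
ENO2: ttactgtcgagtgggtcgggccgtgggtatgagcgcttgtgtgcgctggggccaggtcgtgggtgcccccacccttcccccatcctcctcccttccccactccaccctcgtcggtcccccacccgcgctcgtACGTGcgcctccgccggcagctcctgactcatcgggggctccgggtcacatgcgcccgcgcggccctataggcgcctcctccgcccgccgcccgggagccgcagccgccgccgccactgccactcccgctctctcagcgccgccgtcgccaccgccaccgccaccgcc
ENO1: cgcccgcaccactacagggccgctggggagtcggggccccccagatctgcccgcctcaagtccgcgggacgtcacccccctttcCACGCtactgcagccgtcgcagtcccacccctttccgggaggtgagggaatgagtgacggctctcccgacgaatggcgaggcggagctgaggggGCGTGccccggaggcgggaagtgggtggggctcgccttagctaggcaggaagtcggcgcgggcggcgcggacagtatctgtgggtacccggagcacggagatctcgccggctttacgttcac

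The lactate dehydrogenase subunits moved apart. LDHA, the form that favours lactate production, stood at 46.4, 47.6 and 55.0 RPKM in NT1 and at 168, 189 and 182 RPKM in PRKCI_KD, so the groups were far from overlapping. It rose by 1.84 (SE 0.07, adjusted p = 1.41e-08). LDHB, the form that favours lactate use, stood at 368, 376 and 413 RPKM in NT1 and at 302, 341 and 323 RPKM in PRKCI_KD and fell in PRKCI_KD (-0.26, SE 0.06, adjusted p = 0.00483). LDHA went from 11.2% to 11.8% of lactate dehydrogenase RPKM in NT1 to 35.7% to 36.0% in PRKCI_KD, while the sum of both was 435 ± 28.5 RPKM in NT1 and 502 ± 30.2 RPKM in PRKCI_KD. LDHB remained the more abundant subunit in every library.

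In the other pair LDHA stood at 81.5, 88.6 and 89.5 RPKM in NT2 and at 87.5, 90.0 and 92.1 RPKM in SOX2_KD, and these groups overlapped. Its change was 0.05 (adjusted p = 0.732, 95% interval -0.10 to 0.21). LDHB stood at 611, 599 and 596 RPKM in NT2 and at 619.5, 646 and 652 RPKM in SOX2_KD, a change of 0.09 (adjusted p = 0.453). LDHB shares 33.4% of its exon bases with a second annotated gene on the same strand in GENCODE 29, and its call rests on reads whose assignment is uncertain.

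The promoters of this pair are shown because the subunits changed in opposite directions. LDHA at chr11:18394313-18394612 (plus strand) holds ACGTG 5 times and GCGTG 1 time; each of its 2 copies of CACGTG reads ACGTG on both strands and was counted on each. LDHB at chr12:21657793-21658092 (minus strand) holds GCGTG 1 time.
LDHA: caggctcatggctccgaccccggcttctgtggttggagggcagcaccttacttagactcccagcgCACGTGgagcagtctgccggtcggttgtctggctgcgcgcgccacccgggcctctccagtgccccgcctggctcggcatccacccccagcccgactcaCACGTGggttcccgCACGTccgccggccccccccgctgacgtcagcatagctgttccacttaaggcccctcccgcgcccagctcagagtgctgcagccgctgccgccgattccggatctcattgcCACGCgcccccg
LDHB: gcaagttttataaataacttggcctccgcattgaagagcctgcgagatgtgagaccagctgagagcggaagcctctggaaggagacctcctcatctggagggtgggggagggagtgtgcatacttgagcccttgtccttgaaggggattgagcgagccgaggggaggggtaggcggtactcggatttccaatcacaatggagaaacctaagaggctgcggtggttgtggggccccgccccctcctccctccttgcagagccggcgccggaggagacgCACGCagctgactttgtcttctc

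Over all glucose genes, 34 of 37 had a promoter in the RefSeq table, and SLC2A3, PFKFB2 and SLC16A1 had none matched. ACGTG on either strand was found in 10 of the 14 matched promoters of genes at least 2-fold higher in PRKCI_KD (71.4%) and in 3 of the 20 other matched promoters (15.0%). The 20 others include genes that rose by less than 2-fold, such as PFKP, TPI1, PGAM1, ENO1 and GYS1. They also include the untested HKDC1 and ALDOC, of which ALDOC holds ACGTG. The motif ACGTG was held by 21.6% of all 27305 RefSeq promoters and by 26.7% of the 10056 matched promoters of tested genes. GCGTG was found in 50.0% of the first, 55.0% of the second, 36.3% of all and 50.8% of those of tested genes. The GC content was 66.6% and 66.0% in the first and second, 57.2% in all and 64.5% in those of tested genes. SLC16A3 and PDK1, which rose by at least 2-fold, held neither motif, and PDHB, which did not pass the test, held each 3 times. These counts describe letters in a window and were not tested.

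Monocarboxylate transporters carry lactate with a proton, SLC16A1 (MCT1) in either direction and SLC16A3 (MCT4) mainly outward. SLC16A3 stood at 12.1, 10.2 and 7.62 RPKM in NT1 and at 32.2, 26.9 and 27.4 RPKM in PRKCI_KD, and every knockdown library lay above every control. It rose by 1.46 (SE 0.12, adjusted p = 4.09e-06). In the other pair it stood at 0.0921, 0.105 and 0.104 RPKM in NT2 and at 0.110, 0.0891 and 0.0954 RPKM in SOX2_KD, from 71 to 123 reads per library, levels at which log2(RPKM + 1) leaves little room for a fall. SLC16A1 stood at 12.5, 12.5 and 14.7 RPKM in NT1, 15.1, 17.1 and 16.4 RPKM in PRKCI_KD, 13.5, 13.5 and 14.4 RPKM in NT2 and 13.2, 14.4 and 14.7 RPKM in SOX2_KD. It rose in PRKCI_KD by 0.27 (SE 0.07, adjusted p = 0.00949), and its change in SOX2_KD was 0.03 (adjusted p = 0.884). SLC16A3 held 34.1% to 49.2% of the RPKM of both carriers in NT1, 61.2% to 68.1% in PRKCI_KD and 0.616% to 0.825% in NT2 and SOX2_KD, where SLC16A1 was nearly all of it.

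Pyruvate dehydrogenase kinases switch off pyruvate dehydrogenase and so keep pyruvate out of the mitochondrial cycle. PDK1 stood at 0.397, 0.526 and 0.524 RPKM in NT1 and at 2.58, 2.67 and 2.47 RPKM in PRKCI_KD, and at 2.95, 3.21 and 3.21 RPKM in NT2 and at 3.59, 3.78 and 3.89 RPKM in SOX2_KD. It rose in PRKCI_KD by 1.27 (SE 0.05, adjusted p = 2.55e-08) and in SOX2_KD by 0.21 (SE 0.05, adjusted p = 0.0395), the latter lost under most alternatives, with adjusted p of up to 0.148. With pseudocounts of 0.1 and 5 the rise of PDK1 in PRKCI_KD was 2.21 and 0.47. PDK3 stood at 1.16, 1.44 and 1.39 RPKM in NT1 and at 3.76, 3.42 and 3.94 RPKM in PRKCI_KD, and at 9.22, 10.2 and 9.18 RPKM in NT2 and at 9.23, 9.02 and 8.99 RPKM in SOX2_KD. PDK3 rose in PRKCI_KD by 1.01 (SE 0.06, adjusted p = 4.78e-07) and had a change of -0.06 in SOX2_KD (adjusted p = 0.637). Its rise was 1.42 and 0.46 with the same pseudocounts.

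PDK2, the most widely expressed kinase of this family in normal tissues, moved the other way. It stood at 14.1, 14.7 and 10.9 RPKM in NT1, 8.52, 7.78 and 7.66 RPKM in PRKCI_KD, 6.86, 5.85 and 5.66 RPKM in NT2 and 6.29, 4.96 and 5.04 RPKM in SOX2_KD. It fell in PRKCI_KD (-0.65, SE 0.11, adjusted p = 7.57e-04), all 3 libraries lying below NT1, and its change in SOX2_KD was -0.15 (adjusted p = 0.491). The library kit does not mark strand, and 38.6% of PDK2 exon bases overlap SAMD14 on the opposite strand, so reads of these genes cannot be told apart there. SAMD14 had 5.49 ± 0.822 RPKM in NT1 and 3.26 ± 0.274 RPKM in PRKCI_KD, and its part in the change of PDK2 was not tested. The 3 kinases summed to 15.0 ± 2.00 RPKM in NT1 and 14.3 ± 0.527 RPKM in PRKCI_KD, a sum in which the rise of PDK1 and PDK3 and the fall of PDK2 offset each other.

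Of 4 genes of pyruvate entry and oxidation, 1 rose and 1 fell in PRKCI_KD, where 18.1% of all genes tested rose and 27.0% fell. PDHA1, the catalytic alpha subunit of pyruvate dehydrogenase, fell from 19.5 ± 0.201 to 16.3 ± 0.197 RPKM (-0.24, SE 0.04, adjusted p = 3.20e-04), and 21.3% of its exon bases overlap MAP3K15 on the opposite strand. PDHB, its beta subunit, had a change of -0.10 (adjusted p = 0.171). Of the mitochondrial pyruvate carrier subunits, MPC1 rose from 3.03 ± 0.32 to 3.99 ± 0.37 RPKM, by 0.31 (SE 0.10, adjusted p = 0.0289). That call was lost without NT1 replicate 1, NT1 replicate 2, PRKCI_KD replicate 2 or PRKCI_KD replicate 3 and with no level filter, with adjusted p of 0.0591 to 0.107. MPC2 had a change of -0.04 (adjusted p = 0.592). In SOX2_KD none of these 4 genes passed the test, and PDHA1 had the lowest adjusted p, 0.207, with a change of -0.08.

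The 3 glycogen genes among the 37, GBE1, GYS1 and PGM1, rose in PRKCI_KD. GBE1, the branching enzyme, stood at 10.2, 11.1 and 11.0 RPKM in NT1 and at 24.1, 25.4 and 25.9 RPKM in PRKCI_KD, and at 8.93, 10.3 and 10.4 RPKM in NT2 and at 11.2, 12.1 and 11.7 RPKM in SOX2_KD. It rose by 1.15 (SE 0.06, adjusted p = 1.68e-07) in PRKCI_KD and by 0.22 (SE 0.06, adjusted p = 0.0499) in SOX2_KD, a call at the threshold that was lost under most alternatives, with adjusted p of up to 0.174. GYS1, the glycogen synthase of muscle and most other tissues, rose from 7.67 ± 1.28 to 15.1 ± 1.59 RPKM, by 0.90 (SE 0.11, adjusted p = 5.02e-05). PGM1, which links glucose-6-phosphate and glucose-1-phosphate, rose from 10.6 ± 0.548 to 16.3 ± 0.49 RPKM, by 0.57 (SE 0.05, adjusted p = 4.96e-06). GYS1 and PGM1 did not pass the test in SOX2_KD.

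**Figure D2:**
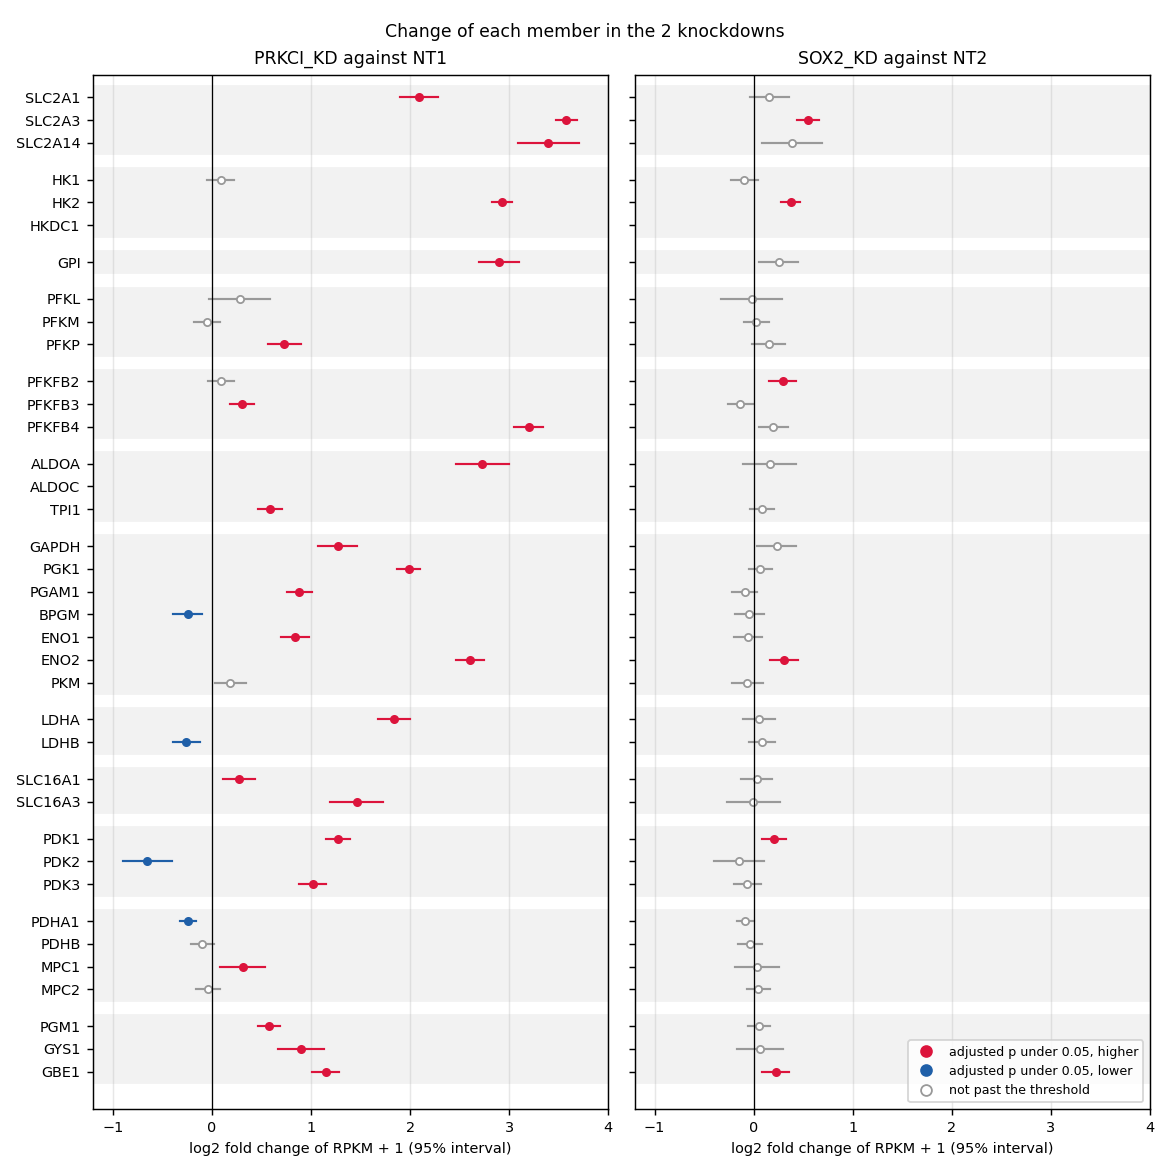
Log2 fold change of RPKM + 1 with its 95% interval for each tested gene, in PRKCI_KD against NT1 on the left and SOX2_KD against NT2 on the right, filled where the adjusted p was under 0.05. The left panel runs from -0.65 for PDK2 to 3.58 for SLC2A3, the right panel from -0.15 for PDK2 to 0.55 for SLC2A3, and HKDC1 and ALDOC have no point since they were not tested.

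The difference between the responses was tested directly, as PRKCI_KD minus NT1 less SOX2_KD minus NT2. It was higher in 22 of the 35 genes, lower in 3 and not past the threshold in 10, where 11.2% and 14.8% of all genes tested were higher and lower. With the replicate block, which here also joins NT1 and PRKCI_KD by number, 4 more genes passed, all higher, and no call was lost. They were HK1 (adjusted p = 0.0386), PFKL (adjusted p = 0.04999), PKM (adjusted p = 0.0112) and SLC16A1 (adjusted p = 0.0477). The 25 genes called without the block are 71.4% of the 35, against 26.1% of all genes tested. The difference was at least 2-fold in 14 genes, against 1.23% of all genes tested. SLC2A3 rose in both knockdowns and differed by 3.03 (SE 0.07, adjusted p = 2.39e-09), and HK2 likewise by 2.55 (SE 0.06, adjusted p = 2.47e-09). LDHA differed by 1.78 (SE 0.10, adjusted p = 6.50e-07) and LDHB by -0.35 (SE 0.09, adjusted p = 0.0126), so each subunit differed between the responses, in opposite directions. PFKFB2, which rose in SOX2_KD alone, had a difference of -0.20 that did not pass the test (adjusted p = 0.109). The difference of SLC16A3, 1.46 (SE 0.17, adjusted p = 1.48e-04), came from the pair of NT1 and PRKCI_KD, as the gene was near 0.1 RPKM in the other pair. The 2 controls also started from different levels, with 25 of the 35 genes higher and 7 lower in NT2 than in NT1. As mean log2(RPKM + 1), SLC2A3 stood at 3.41 in NT1, 6.98 in PRKCI_KD and 7.16 in NT2. Effects of starting level and flow cell therefore cannot be told apart from a response to the silenced gene.

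Isozyme make-up was compared as the share of 1 isozyme in the summed RPKM of its family, over 9 families and 3 comparisons, 27 tests in all. With 3 libraries against 3 an exact permutation test cannot go below p = 0.1 (two-sided), so none could pass a threshold of 0.05. In PRKCI_KD against NT1 all 9 shares separated the groups without overlap and reached that p (adjusted p = 0.1125). Among single genes, 20.9% of all genes tested lay wholly above NT1 in PRKCI_KD and 30.0% wholly below. PFKFB4 went from 29.9% to 81.9% of its family, HK2 from 35.2% to 81.7%, LDHA from 11.4% to 35.8%, and SLC2A3 with SLC2A14 from 56.8% to 79.6% (means of 3 libraries). The share of SLC16A3 went from 42.7% to 64.0%, that of PDK1 from 3.26% to 18.1%, that of PFKP from 30.1% to 39.7%, that of ENO2 from 2.62% to 9.09%, and that of ALDOC from 0.118% to 0.0236%. The share of ALDOC became smaller as ALDOA rose, while ALDOC itself had 0.105 ± 0.0229 RPKM in NT1 and 0.142 ± 0.0162 RPKM in PRKCI_KD, under the filter on low values.

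In SOX2_KD against NT2, 6 of the 9 shares separated the groups and all by under 4 percentage points, the highest being PDK1 from 16.7% to 20.6% and PFKFB4 from 39.4% to 43.4%. The share of LDHA was 12.6% in NT2 and 12.3% in SOX2_KD and the groups overlapped (exact permutation p = 0.5), as did those of ALDOC (exact permutation p = 0.9) and SLC16A3 (exact permutation p = 0.7). The control groups themselves differed in isozyme shares. All 9 shares separated NT2 from NT1 without overlap, at the same p as for PRKCI_KD against NT1 (exact permutation p = 0.1). PDK1 held 3.26% of its family in NT1 and 16.7% in NT2, and SLC2A3 with SLC2A14 held 56.8% and 90.9%. HK2 held 35.2% of hexokinase RPKM in NT1 and 8.82% in NT2, PFKP 30.1% and 66.0% of phosphofructokinase-1, and LDHA 11.4% and 12.6% of lactate dehydrogenase.

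**Figure D3:**
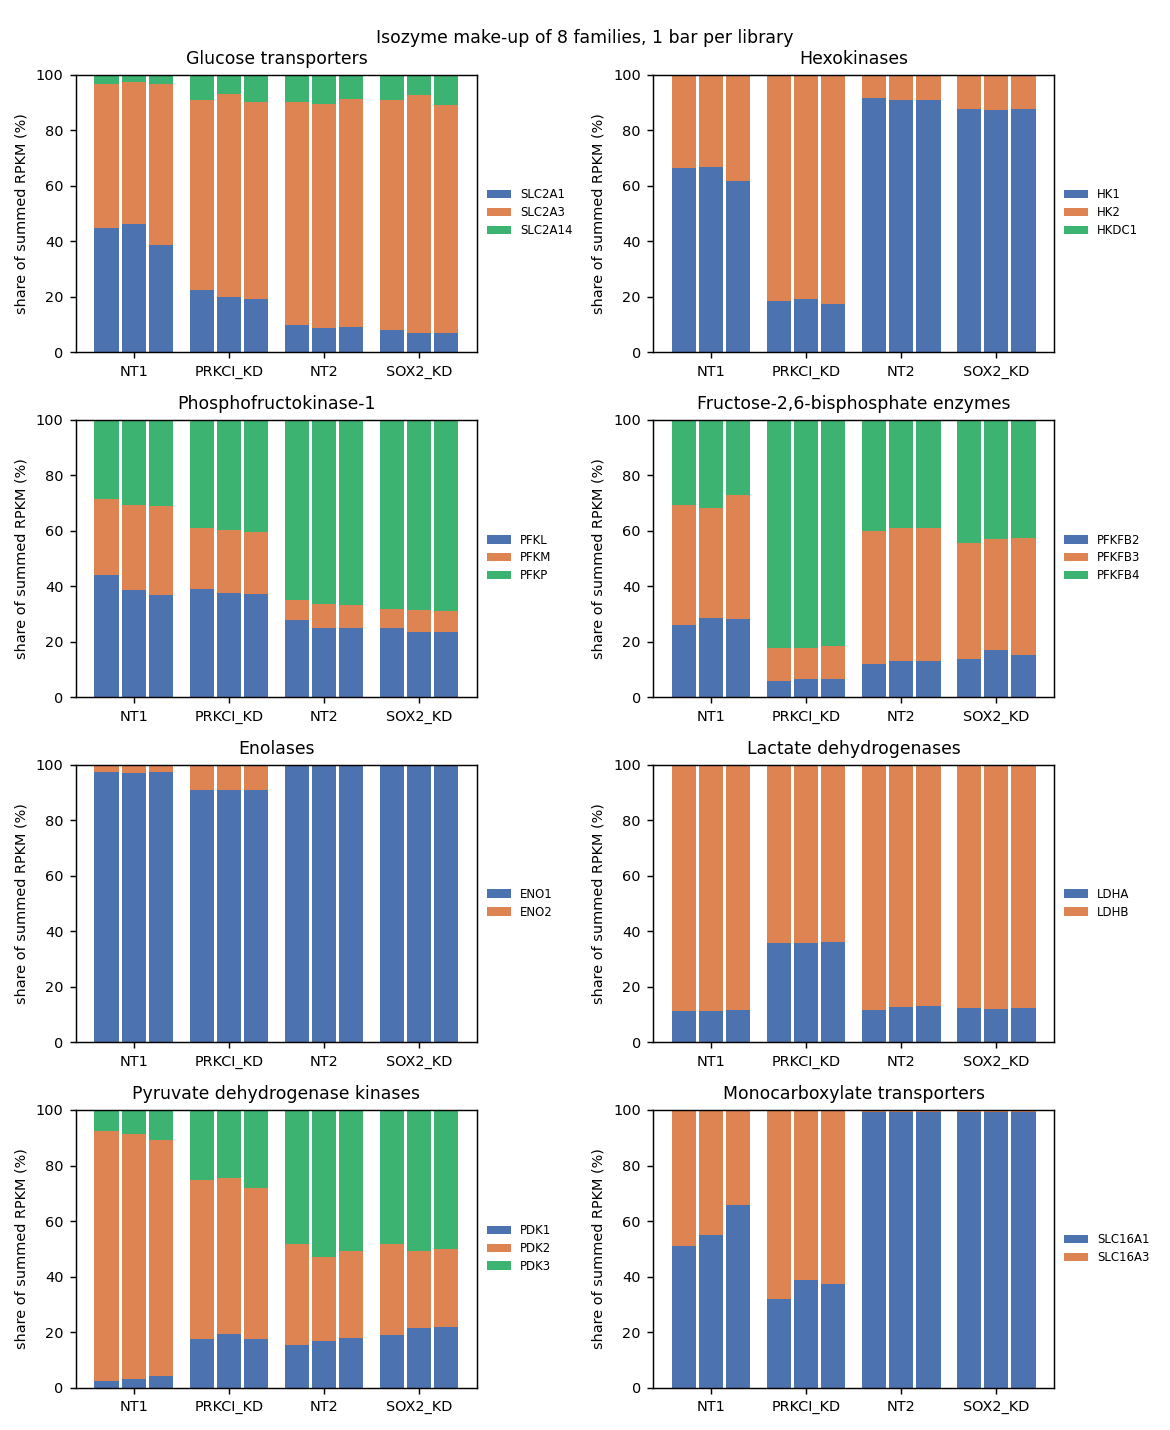
Share of each isozyme in the summed RPKM of its family, in percent, with 1 stacked bar per library and 3 bars per group, for 8 families. HK2, PFKFB4 and LDHA take larger shares in the 3 PRKCI_KD libraries than in the 3 NT1 libraries, while NT2 and SOX2_KD both have mostly HK1 among the hexokinases and almost no SLC16A3.

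The non-targeting controls differed in most of these genes. In NT2 against NT1, 25 of the 35 were higher, 7 lower and 3 not past the threshold, where 36.0% and 42.2% of all genes tested were higher and lower. In 15 genes NT2 was at least 2-fold higher, against 9.51% of all genes tested, and in ENO2 and SLC16A3 at least 2-fold lower, against 12.7%. Flow cell and control group cannot be told apart here, and this comparison shares the NT1 libraries with PRKCI_KD against NT1, so values are set side by side only. SLC2A3 was 3.76 higher in NT2 and 3.58 higher in PRKCI_KD than in NT1, PGK1 2.18 and 1.99, and PFKFB4 2.52 and 3.20, all on the log2 scale. Some genes stood on opposite sides of NT1. HK2 was at -0.51 in NT2 and 2.93 in PRKCI_KD, ENO2 at -1.92 and 2.61, and SLC16A3 at -3.30 and 1.46. HK1 (1.77), PFKP (2.06), PFKFB3 (2.42) and TPI1 (1.89) were higher in NT2 by more than they were in PRKCI_KD, where their changes were 0.09, 0.73, 0.30 and 0.59. The 3 genes not past the threshold were PKM, SLC16A1 and GBE1.

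Among levels, GAPDH was the most abundant of the 37 genes in every group. In NT1 LDHB (386 ± 23.8 RPKM, mean ± SD, n = 3) and ENO1 (342 ± 14.2 RPKM) came next, while in PRKCI_KD ENO1 (612 ± 32.3 RPKM), ALDOA (603 ± 71.5 RPKM) and GPI (483 ± 43.9 RPKM) came before LDHB (322 ± 19.5 RPKM). ENO1 and ALDOA in PRKCI_KD did not differ beyond their spread. In NT2 TPI1 (717 ± 49.4 RPKM) followed GAPDH, then ENO1 (621 ± 38.6 RPKM) and LDHB (602 ± 7.72 RPKM), which lay within the spread of ENO1. Replicates agreed to a median coefficient of variation of 8.97% in NT1, 5.85% in PRKCI_KD, 5.09% in NT2 and 4.32% in SOX2_KD over the 35 genes. The widest were SLC16A3 in NT1 (22.6%) and MPC1 in SOX2_KD (20.4%).

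Over 7 lists of neighbouring pathways of glucose use, 14 of 66 tested genes rose and 24 fell in PRKCI_KD, where 18.1% of all genes tested rose and 27.0% fell. Of 8 tested genes of the pentose phosphate pathway, which makes NADPH and ribose from glucose-6-phosphate, none rose and 4 fell, among them PGD (-0.49, adjusted p = 9.00e-06), TALDO1 (-0.34, adjusted p = 4.81e-04) and RPE (-0.29, adjusted p = 0.0334). Of 6 further pyruvate dehydrogenase genes none rose and 3 fell, namely PDP1, the phosphatase that reverses the kinases (-0.97, adjusted p = 4.11e-06), and the subunits DLD (-0.57, adjusted p = 2.57e-04) and DLAT (-0.19, adjusted p = 0.0329). Of 14 further isozymes and carriers 3 rose and 4 fell. Those with the smallest p were the transporters SLC2A8 (-1.19), SLC2A6 (-0.65) and SLC2A13 (0.51) and the muscle enolase ENO3 (-0.43), with adjusted p of 1.61e-05 to 0.0148. SLC2A6, SLC2A8 and ENO3 thus fell while the main glucose transporters and ENO1 and ENO2 rose.

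Of 16 further glycogen genes 2 rose and 6 fell, where 18.1% of all genes tested rose and 27.0% fell. Among them were the phosphorylases of liver, PYGL (0.34, adjusted p = 6.50e-05), and brain, PYGB (-0.65, adjusted p = 7.69e-05), which moved in opposite directions. PHKB, a phosphorylase kinase subunit (-0.32, adjusted p = 9.28e-04), and PGM2L1 (-0.40, adjusted p = 0.00259) also fell. The branches to hexosamine, serine, glycerol and polyols were mixed, with 6 of 14 higher and 7 lower. GFPT1, the entry enzyme of the hexosamine branch, rose by 1.06 (adjusted p = 8.13e-07) and its isozyme GFPT2 fell (-0.57, adjusted p = 2.47e-06), while PSAT1 of serine synthesis rose by 0.62 (adjusted p = 1.61e-05) and SHMT1, a serine hydroxymethyltransferase, fell (-0.64, adjusted p = 3.02e-06). Of 4 gluconeogenic genes PCK2 (0.89, adjusted p = 3.63e-06) and PC (0.46, adjusted p = 0.00213) rose and none fell, and of 4 glucose-sensing genes ARRDC4 (0.85, adjusted p = 8.70e-07) rose. Median log2 fold changes of these 7 lists lay between -0.23 and 0.20, beside -0.036 for all genes tested.

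In SOX2_KD 9 of the 66 genes of these lists passed the test (13.6%), 7 higher and 2 lower, where 8.18% of all genes tested passed it. None of 8 pentose phosphate genes and none of 4 gluconeogenic genes passed the test. PYGL (0.26, adjusted p = 0.00426) and the glycogen-targeting phosphatase subunits PPP1R3E (0.22, adjusted p = 0.0127) and PPP1R3B (0.22, adjusted p = 0.0184) rose out of 16 glycogen genes. SLC2A12 rose out of 14 isozymes and carriers (0.26, adjusted p = 0.0347), PDP2 out of 6 pyruvate dehydrogenase genes (0.24, adjusted p = 0.0262) and MLXIPL, the glucose-sensing factor ChREBP, out of 4 sensing genes (0.38, adjusted p = 0.0155). In the branches SHMT1 (-0.36, adjusted p = 0.00238) and PSAT1 (-0.39, adjusted p = 0.00423) fell and UAP1 of the hexosamine branch rose (0.34, adjusted p = 0.0414).

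**Figure D4:**
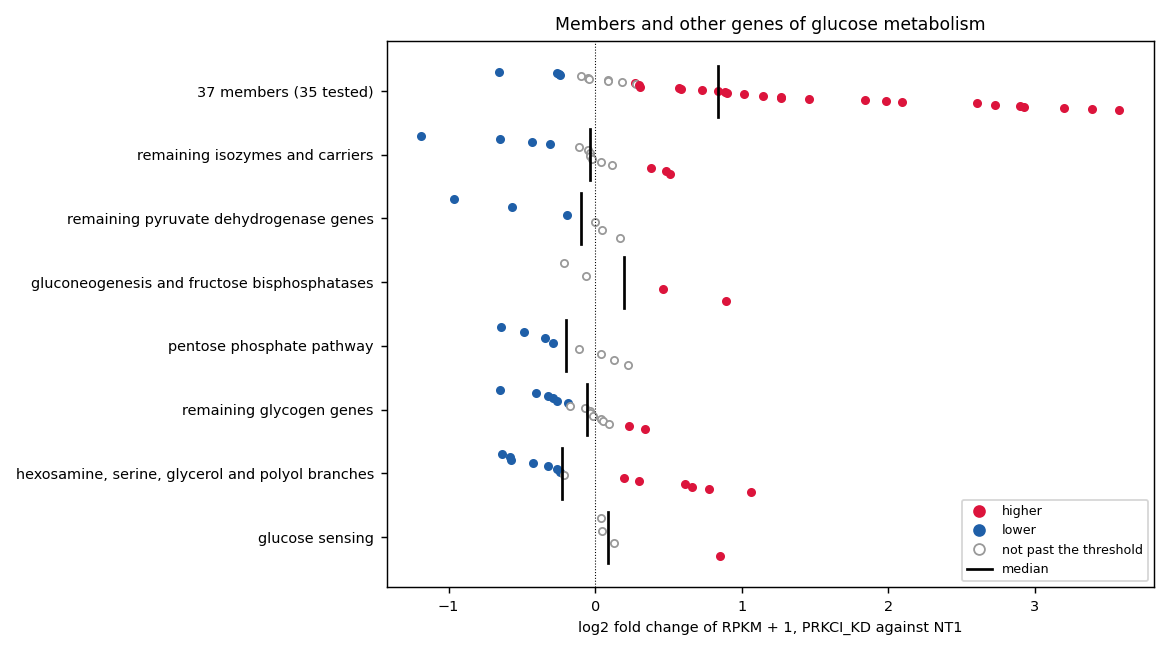
Log2 fold change of RPKM + 1 in PRKCI_KD against NT1 for the tested glucose genes and for 7 lists of neighbouring pathways, 1 point per gene, with the median of each list as a bar. The glucose genes have a median of 0.84 and reach 3.58, whereas the lists have medians between -0.23 and 0.20 and their highest gene, GFPT1, lies at 1.06. The glucose genes and the lists were chosen with earlier results of these data known.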

How the data were processed

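RNA of 12 libraries of H1299 spheroids was sequenced from 120 ng of total RNA with paired reads of 101 bases and a kit that does not mark strand, per the labels' protocols. The authors deposited 1 table of RPKM values, 1 column for each of the 12 libraries as the header names them. TopHat2 2.1, Bowtie 1.1.2, featureCounts and the build GRCh38 were used, per the submitters' processing notes; for the gene annotation and strand setting, the sources used here give nothing. Of 64253 entries, 7091 with a repeated name (7068) or a date as name (29) were left out. Read totals of 77.10 to 124.30 M reads per library were recovered from the values; with them, reads of all 37 genes were whole within 0.001.

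A minimum of 0.5 RPKM, reached in 3 or more libraries, left 19777 genes. Their log2(RPKM + 1) values were fitted in R 4.3.3 with limma 3.58.1, with a mean-dependent prior variance (trend), in 1 fit of 4 group means with 8 residual degrees of freedom. P-values were adjusted by Benjamini-Hochberg over all genes tested, with a threshold of 0.05, and every adjusted p of a gene comes from limma. Isozyme shares were compared with a two-sided exact permutation test (scipy 1.17.1). The fit was tested on simulated data. Promoters came from RefSeq (GRCh38.p14) and exon overlaps from GENCODE 29.

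The 37 genes and all other lists were chosen with earlier results of these data known. Every library's value is given for those of the 37 genes called with a change of at least 1 on the log2 scale and for their isozyme families, and up to 4 called genes of smallest p are named per other list, except 1 result that is not reported here. Replicate numbers come from the labels' titles. Deviations from the group means of same-numbered libraries of NT2 and SOX2_KD correlated at 0.509, 0.241 and 0.240, while NT2 replicate 3 and SOX2_KD replicate 2 correlated at 0.237. These numbers were taken to pair the libraries in the replicate block only, and the main fit does not use them. In the test of the difference the block also joins NT1 and PRKCI_KD by number. Alternatives were other pseudocounts, filters, scalings, the replicate block, each pair of groups alone, SLC2A3 summed with SLC2A14, and each library left out; the count without genes that share sequence was added after seeing the data.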

Additional observations from a re-analysis of the deposited data

Results flagged for a closer look

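The change in PRKCI_KD against NT1 differed from that in SOX2_KD against NT2, by the limma test of the difference itself over all genes, in 25 of the 35 glucose genes. Starting levels in the controls and flow cells differed too and cannot be told apart from the silenced gene. Differences are log2 fold changes of PRKCI_KD against NT1 minus those of SOX2_KD against NT2. Among the carriers they were 3.03 for SLC2A3, 3.01 for SLC2A14, 1.93 for SLC2A1 and 1.46 for SLC16A3. For the upper steps they were 2.55 for HK2, 2.65 for GPI, 0.58 for PFKP, 3.00 for PFKFB4, 0.44 for PFKFB3, 2.56 for ALDOA and 0.50 for TPI1.

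In the lower steps the differences were 1.03 for GAPDH, 1.92 for PGK1, 0.97 for PGAM1, 0.89 for ENO1, 2.30 for ENO2, 1.78 for LDHA and -0.35 for LDHB. Around pyruvate dehydrogenase they were 1.06 for PDK1, -0.50 for PDK2, 1.08 for PDK3 and -0.16 for PDHA1, and for glycogen 0.52 for PGM1, 0.83 for GYS1 and 0.92 for GBE1. The call of PDHA1 was lost under 14 of 20 alternatives, among them each of the 12 fits without 1 library (adjusted p of up to 0.1), that of PDK2 under 11 of 20 and that of TPI1 under 1, and the value of SLC16A3 comes from the pair of NT1 and PRKCI_KD.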

How the results depend on the processing

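Over the results and alternatives tried, 718 of 734 values in PRKCI_KD, 685 of 733 in SOX2_KD, 665 of 699 for the difference and 644 of 664 in NT2 against NT1 kept their direction and their side of the threshold, and none changed direction while called. In PRKCI_KD 27 of 28 called genes kept their call throughout, the exception being MPC1, and in SOX2_KD 2 of 6. Another pseudocount (0.1 or 5) moved the size of 6 of the 28, 4 of the 6 and 4 of the 25 called differences by over 1.5 times. With the replicate block, SOX2_KD had 3419 genes called in place of 1618 and 10 glucose genes higher in place of 6. Leaving out 1 library gave 648 to 2241 genes called and 2 to 6 glucose genes higher in SOX2_KD. The fewest calls came without SOX2_KD replicate 3 (648), SOX2_KD replicate 2 (662), NT2 replicate 2 (849), NT2 replicate 3 (896) and SOX2_KD replicate 1 (1044); fewer samples were in those fits.

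Glucose genes with a lower difference between the responses numbered 3, 1 with median-of-ratios scaling and 1 to 2 without 1 library, and 0 without genes that share sequence, which also left 1 of the 4 lower in PRKCI_KD; those genes are among the ones removed. Share differences in SOX2_KD ranged from -0.0186 to 0.0023 percentage points for ALDOC and from -0.0915 to 0.0131 for SLC16A3 without 1 library. In the pair of NT1 and PRKCI_KD same-numbered deviations correlated at 0.486, -0.111 and 0.344, so the numbers were not taken to pair; the block gave 10768 genes called, 26 glucose genes higher and 4 lower. No paired analysis was possible for NT2 against NT1 because the block is shared within each flow cell only.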
